A study of Mus musculus with 15 samples.

Results

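The comparison described here was a difference of responses: the effect of DRP-104 in orthotopic pancreatic tumors minus the effect of DON in the same cell line in culture. DON (6-diazo-5-oxo-L-norleucine) is a glutamine (Gln) antagonist that inhibits many Gln-using enzymes, and DRP-104 (sirpiglenastat) is a prodrug of it. For each gene, the log2 fold change of DRP-104 against vehicle was taken within the tumor table, that of DON against control within the cell table, and the second was subtracted from the first. Genes with a mean normalized count of at least 10 in both tables entered, which were 13047 of the 55291 genes listed. The gene nearest inside this limit, A230107N01Rik, and the gene nearest outside it, H2bc3, both had a mean of 10.00 in the cells after rounding. The question was which pathways answered the Gln antagonist in culture and not in tumors.

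Of the 15 samples of the series, 12 entered, in 4 groups of 3 libraries each. HY19636 is a murine pancreatic ductal adenocarcinoma (PDAC) line that came from a single tumor of a C57BL/6 mouse with mutant p53 and a Ptf1a-driven Cre, and every group was made of these cells. The cultures had DON at 25 µM for 24 h or no drug, in medium with serum. The tumors grew in the pancreas of female B6J mice aged 8 to 10 weeks, which received DRP-104 at 3 mg per kg or vehicle in 2 cycles of 5 days on and 2 days off, starting on day 7, and were collected on day 21. Drug, dose, duration and setting all differ between tumors and cultures, so their parts in any difference cannot be told apart. The labels do not say whether the cultures were separate experiments, so p-values measure the spread between these libraries. The normalized counts came from 25.2 to 48.2 M reads in the cell libraries and from 16.3 to 20.7 M in the tumor libraries.

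Gln supplies nitrogen for purines, pyrimidines, hexosamines and asparagine, and carbon for the tricarboxylic acid cycle. When amino acids run short, the kinase GCN2 phosphorylates eIF2α, general translation slows and the transcription factor ATF4 is made, which switches on genes for amino acid synthesis, amino acid uptake, tRNA charging and stress adaptation. This program is the integrated stress response. Cholesterol and fatty acid genes are driven by the SREBP factors, and the genes of mitosis follow the number of dividing cells.

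Some libraries stood apart before any comparison. The columns of the control cultures carry the word VEH, as the vehicle tumors do, and were taken as the control group because their table is named for control cells. Fibroblast genes were nearly absent there. The summed level of 9 fibroblast markers was 15.3 to 19.0 RPM (reads per M recovered reads of the library) in control cells, and 6 of these markers had 0 reads in all 6 culture libraries. In vehicle tumors the same sum was 2097 to 4372. Other host lists lay closer: macrophage markers summed to 61.2 to 89.7 RPM in control cells and 322 to 442 in vehicle tumors. The T cell sums were 2.87 to 3.39 in control cells and 3.24 to 6.46 in vehicle tumors. The 6 islet markers had 0 reads in all cultures, while 5 ductal carcinoma markers (Krt7, Krt8, Krt18, Krt19 and Epcam) summed to 11801 to 14202 RPM in control cells, 5706 to 7688 in vehicle tumors and 5896 to 8650 in DRP-104 tumors. DRP-104 tumor 3 held 81.2 RPM of 10 T cell markers, against 2.63 to 6.46 in the other 5 tumors, and Cd8a, the CD8 coreceptor of cytotoxic T cells, had 511 reads in it and 0 to 2 in the others. Fibroblast markers summed lower in every DRP-104 tumor (1058 to 1681) than in every vehicle tumor, and so did 5 endothelial markers (61.8 to 82.7 against 95.1 to 114). The macrophage, neutrophil, B cell, acinar and islet sums overlapped between the tumor groups. In bulk tissue fewer cells of a type and less RNA per cell cannot be told apart.

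**Figure D1:**
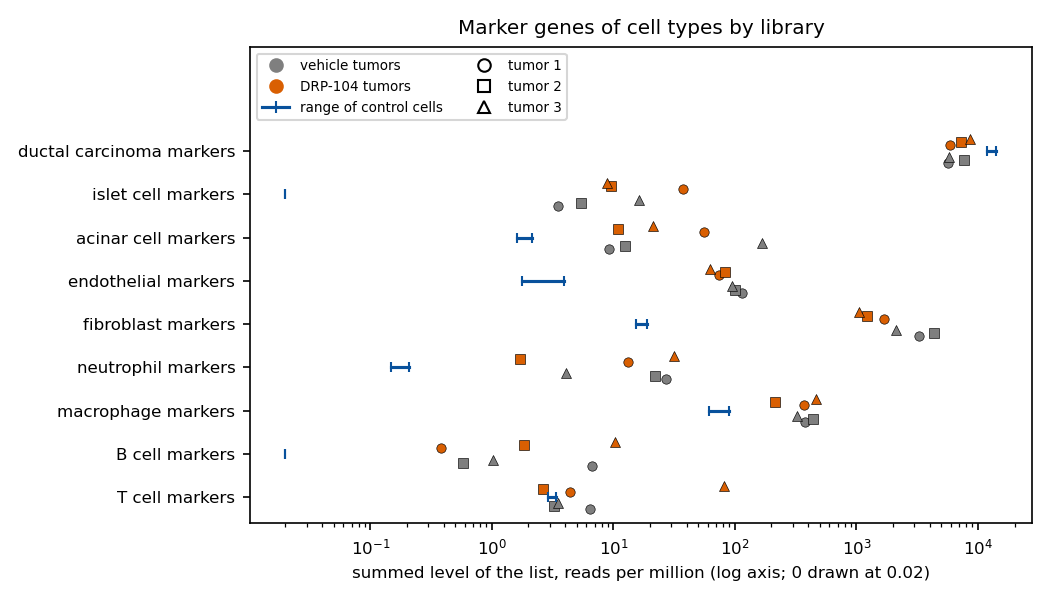
Summed level of the marker genes of 9 cell types in each tumor library, in RPM on a log axis, with gray symbols for vehicle and orange for DRP-104 tumors (circle, square and triangle for tumors 1, 2 and 3) and a blue bar for the range of the 3 control cultures (a sum of 0 is drawn at 0.02). DRP-104 tumor 3 alone had a high T cell sum (81.2), and the fibroblast sums of the DRP-104 tumors (1058 to 1681) all lay below those of the vehicle tumors.

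A second tumor table, in FPKM, has 3 columns for each tumor group, but they do not follow the tumors of the normalized counts. Over 11359 genes, deviations from the gene mean correlated at 0.0908 at most between columns of the same number and at 0.438 at most between any columns. Whether columns were renumbered or exchanged was not tested. The highest FPKM of Cd8a was 0.115, so no column showed the T cell genes of DRP-104 tumor 3. The FPKM columns were therefore used only by group, as another measurement of the tumor response. Of 106 genes chosen by the naming rule with an FPKM value, 59 had a tumor log2 fold change of the other sign in FPKM, and so did the tumor medians of 12 of 27 pathway lists. The directions of single tumor fold changes below are therefore those of the normalized counts, and FPKM values are given beside some of them.

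DON changed most of the transcriptome of the cells and DRP-104 changed no gene of the tumors past the threshold. After DON, 4337 of the 13047 genes were higher (33.2% of those tested) and 4638 lower (35.5%), with 68.8% called in either direction (limma, Benjamini-Hochberg adjusted p under 0.05). On DRP-104, 0 genes were called by limma (0%) and 0 by edgeR, with the smallest adjusted p at 0.952. At an unadjusted p under 0.05 there were 567, and DESeq2 called 6. The median standard error of a tumor fold change was 0.22 on the log2 scale, against 0.13 in cells, so the missing calls by themselves do not show that the tumors did not respond. The difference between the responses could be tested, and 4871 genes (37.3%) passed: 2801 (21.5%) with a higher fold change in tumors than in cells and 2070 (15.9%) with a lower one. Under quantile normalization within each table the split turned to 2482 higher and 2801 lower, since the median DON log2 fold change of all genes moved from 0.01 to 0.13 and the median difference from -0.02 to -0.14. List medians near 0 are therefore given without a direction.

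Nearly all of these calls fell on genes that DON had moved. Of the 4871 genes, 4810 were called after DON, and all 4810 differed against the direction of DON, which follows in part from the subtraction because the same culture libraries are in both values. Among the 4337 genes higher after DON, 2038 were called for the difference, and the median log2 fold change was 0.76 in cells and 0.03 in tumors. Among the 4638 genes lower after DON, 2772 were called, with medians of -1.04 in cells and -0.05 in tumors. The share called grew with the size of the DON response, from 15.0% of 2060 genes that moved by under 0.5 on the log2 scale to 85.8% of 1328 genes that moved by 2 or more.

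**Figure D2:**
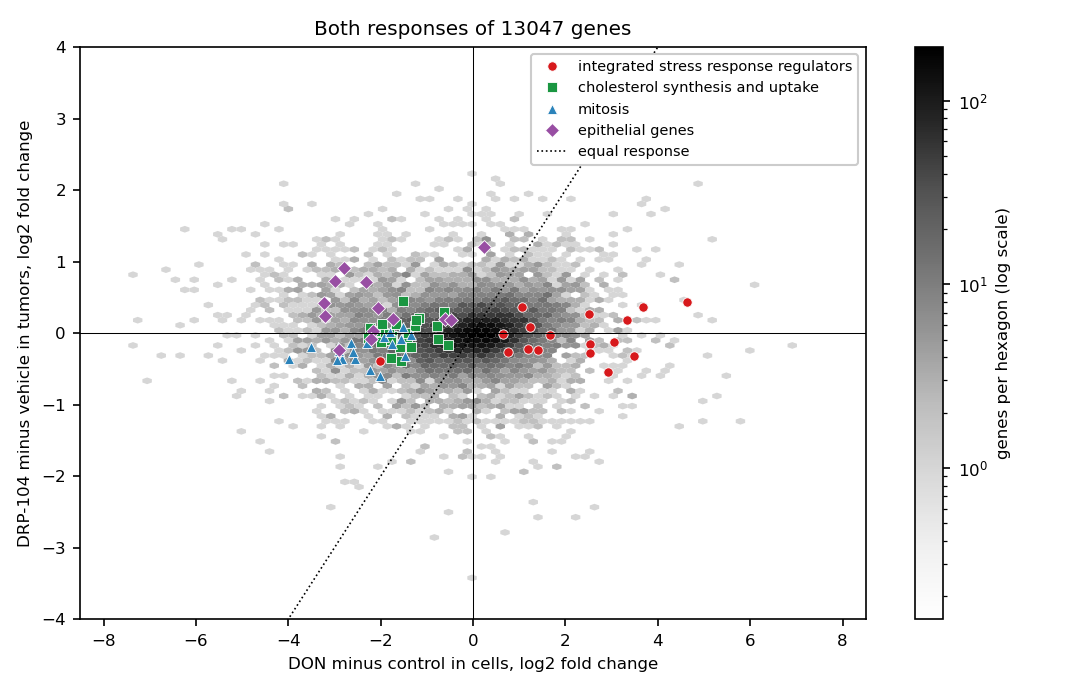
Log2 fold change after DON in cells (x axis) and on DRP-104 in tumors (y axis) of 13047 genes, as gray hexagons shaded by the number of genes, with the tested genes of 4 lists in color and a dotted line where both responses would be equal. Each list spreads more along the x axis than along the y axis. The medians of the integrated stress response regulators are 2.51 in cells and -0.12 in tumors, and those of the mitosis genes are -2.27 and -0.19. The epithelial genes reach further on the y axis, from -0.24 to 1.20, with medians of -2.22 in cells and 0.24 in tumors.

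To say how large a response the tumors could still hide, the 95% interval of the DRP-104 fold change was read at its limit on the side of the DON response, as a percentage of the DON log2 fold change. A limit under 50% means that the tumor interval left out a response that was 50% as large as in cells. That held for 3212 of the 8975 genes called after DON (35.8%), and for 73.6% of the 1328 genes with a DON response of 2 or more. For 2632 genes (29.3%) the limit was 100% or more, and at this depth and spread a tumor response as large as in cells was not detectable as absent.

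**Figure D3:**
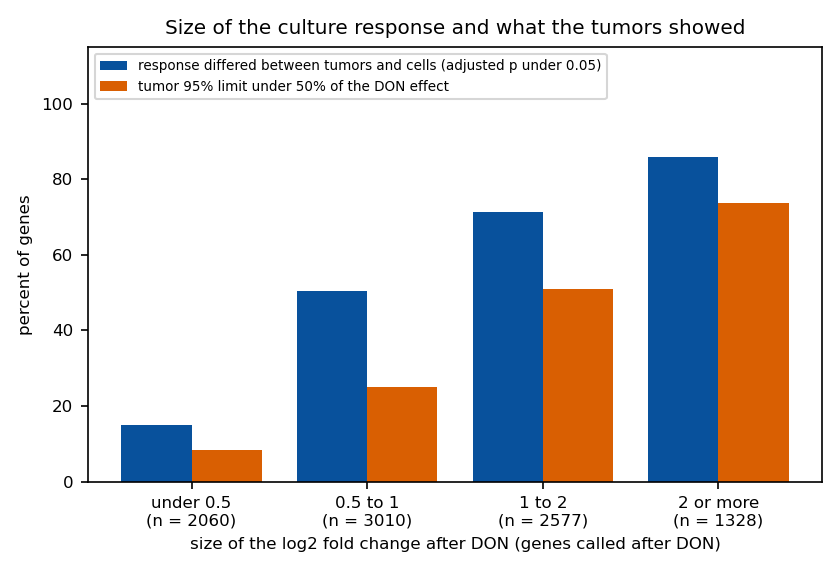
Genes called after DON, grouped by the size of their log2 fold change in cells (x axis), with the percentage called for the difference between tumors and cells in blue and the percentage whose tumor 95% limit is under 50% of the DON response in orange. Both rise with the size of the DON response, from 15.0% and 8.25% to 85.8% and 73.6%.

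The signs of the tumor fold changes leaned slightly toward those of DON. Of the genes higher after DON, 54.6% had a positive log2 fold change on DRP-104, against 48.0% of all genes, and of the genes lower after DON 58.6% had a negative one. At an unadjusted tumor p under 0.05, genes higher after DON included 99 higher and 50 lower on DRP-104, and genes lower after DON included 98 higher and 175 lower. Across genes, which share libraries and are not independent, the responses correlated at Pearson r = 0.0330 and Spearman rho = 0.114. Leaving out 1 tumor at a time moved r from -0.0176 to 0.126, and it was 0.0833 against the FPKM tumor columns.

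To set the result beside the host cell content of the tumors, genes were sorted by their level in vehicle tumors over that in control cells, in RPM. Of 12155 genes within 4-fold either way, 37.0% were called for the difference. Of 823 genes over 4-fold higher in the tumors, 40% were called, and of 69 genes over 4-fold lower, 63.8%. The median standard errors of the difference were 0.26, 0.66 and 0.42 in this order, and the median sizes of the DON response 0.58, 1.41 and 1.94. The part of host cells in the differences was not tested.

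The integrated stress response regulators rose in cells and stayed near 0 in tumors. Of 18 genes, 17 were tested, 16 rose after DON and 1 fell (backgrounds 33.2% and 35.5%). The median log2 fold change was 2.51 in cells and -0.12 in tumors, where the members ran from -0.55 to 0.44 (median 0.26 in FPKM) and 0 of 17 had an unadjusted p under 0.05. For the difference, 16 of 17 were called lower in tumors and 1 higher (backgrounds 15.9% and 21.5%), with a median of -2.24 against -0.02 for all genes. Without DRP-104 tumor 3 the counts for the difference were the same and its median was -2.12. The sign of the tumor median depended on that tumor, since it was 0.22 without it. Of the 17 DON-called members, 16 had a tumor limit under 50% of the DON response, with a median limit of 29.2%.

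Ddit3 (GRCm38, chromosome 10, 127290774 to 127296288, plus strand) encodes the stress transcription factor CHOP. It had 488, 457 and 468 normalized counts in control cells and 11609, 13277 and 10524 after DON. In tumors it had 374, 410 and 418 on vehicle and 681, 623 and 376 on DRP-104. DON raised it 24.9-fold with no overlap of the groups, while tumors 1 and 2 on DRP-104 lay above the vehicle tumors and tumor 3 lay among them. The difference was -4.20 ± 0.261 (SE, log2) with an adjusted p of 3.85e-07 (limma), and the tumor interval of -0.11 to 0.99 ended at 21.3% of the DON response.

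Ppp1r15a, the GADD34 subunit that directs dephosphorylation of eIF2α, went from 650, 596 and 665 normalized counts in control cells to 7212, 6975 and 7074 after DON. Vehicle tumors had 345, 733 and 433, and DRP-104 tumors 366, 473 and 327, which overlap. Its difference was -3.79 ± 0.310 (adjusted p = 2.01e-06). Gadd45a, a growth arrest gene, had 616, 512 and 631 in control cells, 4320, 4421 and 4521 after DON, 1047, 1265 and 1613 in vehicle tumors and 1152, 1104 and 531 in DRP-104 tumors. It gave a difference of -3.47 ± 0.345 (adjusted p = 8.23e-06), and its tumor limit was 5.05% of the DON response, the lowest of the list.

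Atf4, the factor at the head of the program, had 9575, 8621 and 8342 normalized counts in control cells and 28393, 28024 and 27693 after DON. In vehicle tumors it had 3624, 3957 and 4316, and in DRP-104 tumors 4926, 4387 and 2701. Its mRNA thus rose 3.17-fold in cells, and the tumor groups overlapped, with DRP-104 tumors 1 and 2 the highest and tumor 3 the lowest of the 6. The difference was -1.69 ± 0.249 (adjusted p = 1.72e-04). Its relatives Atf5 and Atf3, both stress-induced factors, differed by -3.17 and -3.16, and the endoplasmic reticulum stress sensor Atf6 by -0.95 (adjusted p = 0.00293). The single exception of the list was Ddit4, an inhibitor of mTORC1, which fell by 2.01 after DON and had -0.39 in tumors, a difference of 1.63 (adjusted p = 3.80e-04). The control and DON libraries of Ddit3, Ppp1r15a, Gadd45a and Atf4 did not overlap, as was so for 72.5% of all genes tested. With 3 libraries a group an exact permutation test (two-sided) cannot go below p = 0.1, the value of each of these genes in the cells.

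The promoters of these genes were searched for the composite element that ATF4 binds, written TGATGNAA, in the 250 bases before the gene start, on both strands. RefSeq promoters (GRCm38.p6) matched 9863 of the 13047 genes, and 233 of these (2.36%) held the element in at least 1 listed promoter. It was found in 4 of 16 integrated stress response regulators, in 3 of 12 genes of serine, asparagine and proline synthesis, in 3 of 13 aminoacyl-tRNA synthetases and in 1 of 9 amino acid transporters. Over all 32851 listed promoters the share was 3.45%. A match is a description of these letters and not a measured binding site. The stretches below belong to genes that DON raised in cells and that were called lower in tumors for the difference, except Slc7a11, which was not called for it, and they are shown so that the shared letters can be compared. They run 5′ to 3′ on the strand of the gene, with the element, or its reverse complement, in capitals.
Atf3 (chr1:191183396-191183483, minus strand): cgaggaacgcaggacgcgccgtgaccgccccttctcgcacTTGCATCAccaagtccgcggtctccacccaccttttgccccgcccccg
Chac1 (chr2:119351009-119351096, plus strand): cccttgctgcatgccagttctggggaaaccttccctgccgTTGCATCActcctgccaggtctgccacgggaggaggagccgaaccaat
Asns (chr6:7693210-7693272, minus strand): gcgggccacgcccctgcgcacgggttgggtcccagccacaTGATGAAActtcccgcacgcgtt
Pycr1 (chr11:120643804-120643891, minus strand): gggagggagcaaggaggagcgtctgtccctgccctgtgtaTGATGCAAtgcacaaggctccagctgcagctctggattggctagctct
Aars (chr8:111033690-111033777, plus strand): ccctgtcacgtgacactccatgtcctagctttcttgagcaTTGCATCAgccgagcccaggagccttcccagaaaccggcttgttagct
Slc7a11 (chr3:50443614-50443719, minus strand): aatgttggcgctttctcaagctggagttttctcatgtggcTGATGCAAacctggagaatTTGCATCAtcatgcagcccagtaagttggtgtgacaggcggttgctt
Slc7a11, the cystine transporter, is the only one of these with a pair of elements, on opposite strands. The elements of these 6 genes begin between position -193 (Chac1) and position -23 (Asns) relative to the gene start. The differences of Atf3, Chac1, Asns, Pycr1 and Aars were -3.16, -2.69, -1.66, -1.68 and -1.33 (log2), and that of Slc7a11 was -0.58 (adjusted p = 0.419).

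The list of 14 genes named for serine, asparagine and proline synthesis followed the same course. Besides enzymes that make these amino acids it held others, among them Cth, Aldh1l2, Mthfd2 and Pck2. All 14 were tested, and 13 rose after DON and 1 fell (92.9% and 7.14%, against 33.2% and 35.5% of all genes). The medians were 1.5 in cells and 0.14 in tumors. For the difference, 11 were called lower in tumors and 0 higher (78.6% and 0%, against 15.9% and 21.5% of all genes), with a median of -1.37. Without DRP-104 tumor 3 the tumor median was 0.32 and the median difference -1.26. In the tumors 2 of the 14 had an unadjusted p under 0.05, Mthfd2 at 0.45 and Pck2 at 0.43 (log2), both in the direction of DON. Aldh1l2, a mitochondrial enzyme of one-carbon metabolism, had 438, 442 and 402 normalized counts in control cells and 5924, 6188 and 5606 after DON. Its vehicle tumors had 62.6, 30.6 and 42.4 and its DRP-104 tumors 139, 86.5 and 54.9. DRP-104 tumors 1 and 2 lay above all vehicle tumors, and the tumor interval of -0.02 to 2.01 reached 53.0% of the DON response. Its difference was -2.79 ± 0.419 (adjusted p = 1.97e-04).

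Cth, which makes cysteine from cystathionine, differed by -2.87 ± 0.411 and Psph, the last step of serine synthesis, by -2.29 ± 0.308. Psph had 1411 to 2041 normalized counts in control cells and 7545 to 7819 after DON, against 294 to 359 in vehicle and 197 to 418 in DRP-104 tumors. These enzymes were at a low level in the tumors: in RPM the median of the list in vehicle tumors was 0.355 of that in control cells, and 11 of 14 members were under 0.5, against 4.83% of all genes. By contrast the integrated stress response regulators had a median ratio of 1.03.

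Cytosolic aminoacyl-tRNA synthetases, which charge tRNAs with amino acids, had 13 of 20 members higher and 3 lower after DON (median 0.72), and a tumor median of 0.00 with members from -0.24 to 0.47. Of the 20, 11 were called lower in tumors for the difference and 1 higher. Nars, the asparaginyl-tRNA synthetase, had 10283, 9943 and 9658 normalized counts in control cells and 36635, 37150 and 33956 after DON, while vehicle tumors had 3417, 3874 and 3540 and DRP-104 tumors 3905, 3987 and 3135. It rose 3.60-fold in cells and its tumor groups overlapped. Its difference was -1.83 ± 0.161 (adjusted p = 3.43e-06). Aars (alanine) and Sars (serine) differed by -1.33 and -1.22.

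Among amino acid transporters, 10 of 13 tested members rose after DON and 1 fell (76.9% and 7.69%, against 33.2% and 35.5% of all genes), with a median of 0.64. For the difference 5 were called lower in tumors and 1 higher (38.5% and 7.69%, against 15.9% and 21.5% of all genes). Slc3a2, the heavy chain shared by several exchangers, had 7039, 6714 and 5833 normalized counts in control cells and 22104, 25403 and 21976 after DON. In vehicle tumors it had 2537, 3115 and 2639, and in DRP-104 tumors 2033, 2515 and 2794, with overlap. The difference was -2.01 ± 0.192 (adjusted p = 6.13e-06), beside -1.52 for Slc1a4, a neutral amino acid carrier, and -1.46 for Slc7a1, which carries arginine and lysine. Without DRP-104 tumor 3 the median difference of the list moved from -0.58 to -0.72.

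**Figure D4:**
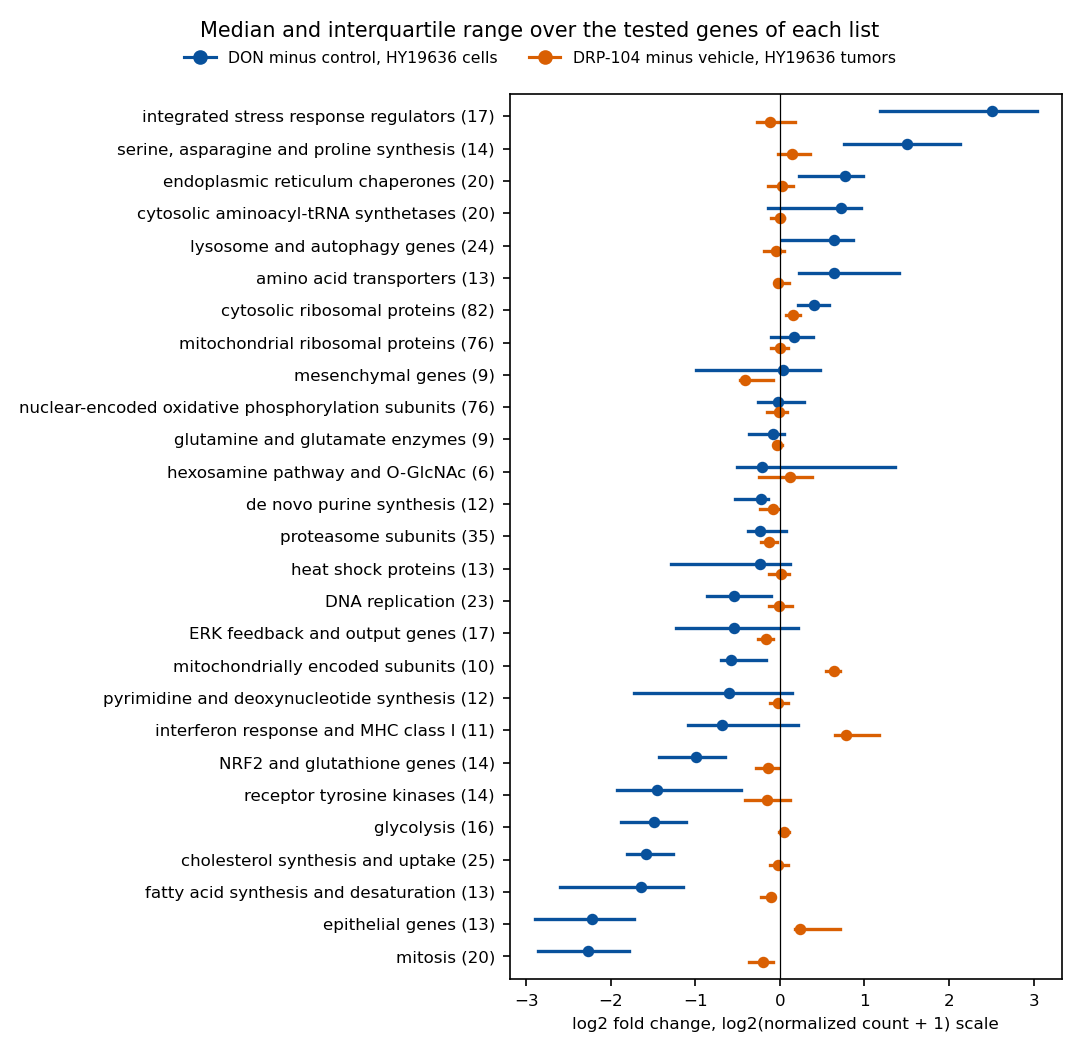
Median (dot) and interquartile range (line) of the log2 fold change over the tested genes of 27 pathway lists, with DON minus control in cells in blue, DRP-104 minus vehicle in tumors in orange and the number of tested genes in brackets. The cell medians run from -2.27 (mitosis) to 2.51 (integrated stress response regulators), while the tumor medians lie between -0.41 (mesenchymal genes) and 0.78 (interferon response and MHC class I).

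Of 9 enzymes of Gln and glutamate, 2 rose (22.2%) and 3 fell (33.3%) after DON, and 1 was called in each direction for the difference (11.1%). These shares lie below those of all genes (33.2% and 35.5% after DON, 21.5% higher and 15.9% lower for the difference). Glul, which makes Gln from glutamate and ammonia, had 10675, 10683 and 8915 normalized counts in control cells and 2676, 2499 and 2602 after DON. Vehicle tumors had 3200, 4124 and 2192 and DRP-104 tumors 2541, 2807 and 4483. It fell in cells, the tumor groups overlapped, and the difference was 2.00 ± 0.313 (adjusted p = 2.73e-04). Nit2, an amidase of the Gln transaminase pathway, rose in cells and differed by -1.04 ± 0.226.

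In purine synthesis 6 of 12 enzymes fell and 1 rose after DON (50% and 8.33%, against 35.5% and 33.2% of all genes). For the difference 4 were called higher in tumors and 1 lower (33.3% and 8.33%, against 21.5% and 15.9%). The riser was Impdh2, the isoform of IMP dehydrogenase that leads guanine nucleotide synthesis in dividing cells, with 11536, 10969 and 9087 normalized counts in control cells and 34928, 38573 and 31467 after DON. Its tumors had 2486, 2738 and 3699 on vehicle and 2497, 2822 and 3140 on DRP-104, so the DRP-104 values lay within the vehicle range. The other isoform, Impdh1, fell in cells, and the difference was -1.80 for Impdh2 and 0.89 for Impdh1 (adjusted p = 4.13e-05 and 0.0167). For Impdh1 the tumor limit was 71.2% of the DON response.

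In pyrimidine and deoxynucleotide synthesis 7 of 12 fell and 3 rose after DON (58.3% and 25.0%, against 35.5% and 33.2% of all genes). For the difference 6 were called higher and 1 lower in tumors (50% and 8.33%, against 21.5% and 15.9% of all genes). Tk1, the S phase thymidine kinase, had 4982, 4953 and 4580 normalized counts in control cells, 500, 679 and 547 after DON, 1033, 986 and 1161 in vehicle tumors and 1013, 1068 and 973 in DRP-104 tumors. Its difference was 3.02 ± 0.179 (adjusted p = 2.89e-07) with a tumor limit of 12.1%. The ribonucleotide reductase subunits Rrm2 and Rrm1 differed by 2.69 and 2.47. The hexosamine list (6 of 7 tested) had 3 calls, 33.3% of members higher and 16.7% lower in tumors (all genes 21.5% and 15.9%). Among these calls were the enzymes that remove and add O-GlcNAc. Oga had 5487, 5906 and 6182 in control cells and 1061, 1126 and 1189 after DON, against 3690, 3789 and 3400 in vehicle and 3520, 4055 and 3494 in DRP-104 tumors, a difference of 2.40 ± 0.147. Ogt rose from 2674, 2573 and 3170 to 10563, 10072 and 10254 in cells, with 5779, 3431 and 5364 in vehicle and 5126, 8061 and 6627 in DRP-104 tumors, a difference of -1.43 ± 0.271. The median difference of this list was 0.26 and turned to -0.24 with the FPKM tumor columns.

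Genes of lipid synthesis fell together in cells, while the same genes lay near 0 in tumors. All 25 cholesterol synthesis and uptake genes were tested and all 25 fell after DON (background 35.5%), with a median of -1.58 and a tumor median of -0.02. For the difference, 24 of 25 were called higher in tumors (background 21.5%), with a median of 1.43 that ran from 1.34 to 1.65 over the 23 alternatives. Their tumor fold changes lay between -0.39 and 0.45, and 21 of 25 had a tumor limit under 50% of the DON response. Of 13 fatty acid genes, 12 fell after DON and the same number were called higher in tumors, with medians of -1.64 in cells, -0.11 in tumors and 1.87 for the difference.

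Hmgcs1, the HMG-CoA synthase at the entry of the cholesterol pathway, had 8041, 7682 and 9198 normalized counts in control cells and 2077, 1670 and 1980 after DON. Vehicle tumors had 2333, 1510 and 1376, and DRP-104 tumors 1983, 1690 and 1529. It fell in cells with no overlap, the DRP-104 tumors lay within the vehicle range, and the difference was 2.15 ± 0.251 (adjusted p = 2.82e-05). Fads2, the delta-6 desaturase, had 11387, 12174 and 9702 in control cells, 1230, 959 and 1415 after DON, 1244, 763 and 852 in vehicle tumors and 681, 806 and 1746 in DRP-104 tumors, a difference of 3.30 ± 0.408 (adjusted p = 4.30e-05). Elovl6, a fatty acid elongase, and Acss2, which makes acetyl-CoA from acetate, differed by 3.24 and 3.07.

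These genes were already at a low level in vehicle tumors. Taking RPM in vehicle tumors over those in control cells, the cholesterol genes had a median ratio of 0.369, with 22 of 25 under 0.5. The level after DON over that in control cells had a median of 0.364. For the fatty acid genes the ratios were 0.434 and 0.355. For vehicle tumors the median over all genes tested was 1.15. The tables were normalized separately, and what the lower starting level contributes to the difference was not tested. The sterol element TCACNCCAC was found before the start of 1 of 17 cholesterol genes with a promoter in the table and of 120 of the 9863 genes (1.22%). It is shown for Hmgcs1, which carries the 1 match of the list, with the element in capitals (GRCm38.p6, RefSeq).
Hmgcs1 (chr13:119690174-119690262, plus strand): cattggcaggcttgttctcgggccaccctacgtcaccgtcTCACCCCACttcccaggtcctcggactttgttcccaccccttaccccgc

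Glycolysis showed the same pattern from a higher starting level. All 16 genes fell after DON (background 35.5%), with a median of -1.49, and the tumor median was 0.05. For the difference 15 were called higher in tumors (background 21.5%), with a median of 1.39, or 16 without DRP-104 tumor 3. Ldha, the lactate dehydrogenase subunit, had 74551, 79737 and 61427 normalized counts in control cells and 12245, 10890 and 11608 after DON. In vehicle tumors it had 25286, 26393 and 27616 and in DRP-104 tumors 33092, 31198 and 18954. DRP-104 tumors 1 and 2 lay above and tumor 3 below the vehicle tumors, and the difference was 2.66 ± 0.266 (adjusted p = 8.74e-06). Slc16a3, the lactate exporter, differed by 3.04 ± 0.321 and Pfkl, a phosphofructokinase, by 2.70 ± 0.251. The level of this list in vehicle tumors was 0.795 of that in control cells, and in DON-treated cells 0.394.

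Of 14 NRF2 and glutathione genes, 13 fell after DON and 1 rose (92.9% and 7.14%, against 35.5% and 33.2% of all genes). For the difference 8 were called higher and 1 lower in tumors (57.1% and 7.14%, against 21.5% and 15.9% of all genes). The riser was Hmox1, the heme oxygenase, with 1034, 1075 and 857 normalized counts in control cells, 4669, 4190 and 4611 after DON, 707, 1603 and 987 in vehicle and 1171, 1081 and 617 in DRP-104 tumors (difference -2.36 ± 0.378). The NADPH-producing enzymes Pgd and G6pdx of the pentose phosphate pathway differed by 1.48 and 1.43. In the tumors all 14 lay between -0.91 and 0.12, with 1 at an unadjusted p under 0.05.

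Genes of mitosis fell in cells without exception, 20 of 20 (background 35.5%), with a median of -2.27. All 20 were called higher in tumors for the difference (background 21.5%), with a median of 2.15. The tumor median was -0.19, the members ran from -0.60 to 0.09, and 4 of 20 had an unadjusted p under 0.05. Without DRP-104 tumor 3 the tumor median was -0.23, and with the FPKM columns it was -0.24. Of the 20 members, 18 had a tumor limit under 50%, with a median of 24.3% of the DON response.

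Nuf2, a kinetochore protein, had 1021, 957 and 1008 normalized counts in control cells and 52.5, 69.3 and 64.6 after DON, against 478, 337 and 453 in vehicle and 375, 320 and 288 in DRP-104 tumors. Its difference was 3.63 ± 0.262 (adjusted p = 9.91e-07). Plk1, a mitotic kinase, had 3502, 3554 and 2863 in control cells, 217, 378 and 294 after DON, 593, 588 and 548 in vehicle tumors and 403, 426 and 729 in DRP-104 tumors. DRP-104 tumors 1 and 2 lay below the vehicle tumors and tumor 3 above them, and the difference was 3.30 ± 0.322. Top2a, a DNA topoisomerase of dividing cells, differed by 2.73 ± 0.197. As with the lipid genes, the list had a low level in vehicle tumors, 0.410 of that in control cells, where DON-treated cells had 0.230.

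Of the DNA replication genes, 16 of 23 fell and 2 rose after DON (69.6% and 8.70%, against 35.5% and 33.2% of all genes), with a median of -0.54. For the difference 9 were called higher in tumors and 0 lower (39.1% and 0%, against 21.5% and 15.9% of all genes). Mcm5, a subunit of the replicative helicase, had 6483, 6690 and 5580 normalized counts in control cells, 1910, 2386 and 1780 after DON, 803, 653 and 974 in vehicle and 699, 646 and 920 in DRP-104 tumors, a difference of 1.53 ± 0.244. Cdc6, a loading factor of the helicase, and Orc1, of the origin recognition complex, differed by 1.36 and 1.30.

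Among the systems that fold and clear proteins, chaperones of the endoplasmic reticulum rose in cells (14 of 20 higher and 1 lower, median 0.77), with a tumor median of 0.03. For the difference 13 were called lower in tumors (65.0%, against 15.9% of all genes). Dnajb9, a co-chaperone of the unfolded protein response, had 592, 482 and 686 normalized counts in control cells, 3144, 3259 and 2926 after DON, 898, 824 and 1004 in vehicle and 1160, 949 and 1008 in DRP-104 tumors (difference -2.22 ± 0.201). Derl3, of the degradation machinery, differed by -3.53 ± 0.557 and Hyou1, a large chaperone, by -1.20 ± 0.185. Of 13 heat shock genes, 6 fell and 2 rose after DON (46.2% and 15.4%, against 35.5% and 33.2% of all genes). For the difference 4 were called higher in tumors (30.8%, against 21.5%). Hspb1, a small heat shock protein, had 2515 to 3517 normalized counts in control cells, 212 to 318 after DON, 748 to 1147 in vehicle tumors and 716 to 927 in DRP-104 tumors, a difference of 3.44 ± 0.276. Hspa1a and Hspa1b are near-identical genes that could share reads, and DRP-104 tumor 2 was the highest of the tumors for both, at 648 and 2134.

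Of 24 lysosome and autophagy genes, 15 rose and 4 fell after DON (62.5% and 16.7%, against 33.2% and 35.5% of all genes). For the difference 14 were called lower and 2 higher in tumors (median -0.61). The calls for the difference are 58.3% and 8.33%, against 15.9% and 21.5% of all genes. Sqstm1, the autophagy receptor p62, had 23519, 23183 and 18638 normalized counts in control cells and 77754, 70163 and 75723 after DON. Vehicle tumors had 5971, 8116 and 8075 and DRP-104 tumors 7700, 7701 and 5484, with overlap, and the difference was -1.87 ± 0.235 (adjusted p = 4.93e-05). Mcoln1, the lysosomal calcium channel, and Hexa, a lysosomal hexosaminidase, differed by -1.77 and -1.63.

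Cytosolic ribosomal protein genes rose mildly in cells, 55 of 82 (67.1%, against 33.2% of all genes) with a median of 0.40, and had a tumor median of 0.15. For the difference, 8 of 82 were called lower in tumors (background 15.9%), and the median tumor limit of the DON-called members was 123% of the DON response. Many of these genes have near-identical copies that could share reads. Under quantile normalization 30 of 82 were called, and with the FPKM columns the tumor median was -0.13. The members with the largest called differences were Rpl22l1 (-1.86), Rpl3 (-0.82) and Rps9 (-0.68). Of 76 mitochondrial ribosomal proteins, 29 were higher and 14 lower after DON (38.2% and 18.4%, against 33.2% and 35.5% of all genes). For the difference they had 14 calls lower and 5 higher in tumors, with Mrpl32 at -1.16. Their share of lower calls, 18.4%, is near the 15.9% of all genes, and that of higher calls, 6.58%, is below 21.5%.

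Nuclear-encoded oxidative phosphorylation genes were split evenly after DON, 21 of 76 higher and 21 lower (27.6% each, against 33.2% and 35.5% of all genes). For the difference 8 were called higher and 7 lower in tumors. These are 10.5% and 9.21%, both below the shares of all genes (21.5% and 15.9%). Without DRP-104 tumor 3, and also under quantile normalization, the lower calls numbered 14. Uqcrq, of complex III, rose in cells from 3898 to 5160 to 12185 to 13614 normalized counts and had 1286 to 1686 in vehicle and 1112 to 1419 in DRP-104 tumors, a difference of -1.74 ± 0.195. The 35 proteasome subunits had 17 lower and 4 higher after DON (48.6% and 11.4%, against 35.5% and 33.2% of all genes). They had 5 calls higher and 2 lower for the difference, among them Psmd1 at 1.16. Their 14.3% and 5.71% are also below the shares of all genes. Mitochondrially encoded subunits had 6 of 10 lower after DON and 4 called higher in tumors (median 1.15), or 6 without DRP-104 tumor 3 and 2 under quantile normalization. Their tumor median was 0.63 in the normalized counts and -1.13 in FPKM, and with the FPKM columns the median difference turned to -0.70. In FPKM 1 DRP-104 column stood apart: mt-Cytb had 175, 2568 and 2454 on DRP-104 and 2819, 3071 and 2670 on vehicle. For mt-Nd4 the DRP-104 columns had 62.8, 795 and 802. What this column contributes to the FPKM medians was not tested. In mt-Cytb, DRP-104 tumor 1 had 183570 normalized counts, beside 76811 and 111594 in the other DRP-104 tumors and 91436, 55977 and 82814 on vehicle.

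For ERK signaling, a list of 17 feedback and output genes had 11 lower and 4 higher after DON (median -0.54), and 6 were called higher and 4 lower in tumors for the difference. After DON these are 64.7% lower and 23.5% higher (all genes 35.5% and 33.2%), and for the difference 35.3% higher and 23.5% lower (all genes 21.5% and 15.9%). In the tumors 0 of 17 had an unadjusted p under 0.05 (median -0.16, from -0.55 to 0.42). Etv4, an ETS factor downstream of ERK, had 3019, 3186 and 2429 normalized counts in control cells and 667, 601 and 676 after DON, against 1507, 1975 and 1803 in vehicle and 1472, 1641 and 1464 in DRP-104 tumors (difference 1.94 ± 0.190). Phlda1, an ERK-responsive gene, had 2476, 2666 and 2231, then 579, 582 and 564, and in tumors 2187, 1414 and 1833 on vehicle and 1869, 2254 and 2533 on DRP-104 (difference 2.39 ± 0.221). Its tumor log2 fold change was 0.30, and -0.57 in FPKM, where the DRP-104 columns had 7.71, 21.4 and 24.3 and the vehicle columns 26.0, 24.3 and 22.7. Dusp4, a phosphatase of ERK, went the other way, from 5982, 6641 and 5837 to 18370, 19226 and 19219 in cells, with 2645, 3341 and 3473 in vehicle and 2533, 3561 and 1084 in DRP-104 tumors (difference -2.17 ± 0.422).

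Receptor tyrosine kinases mostly fell in cells, with 12 of 14 tested lower and 1 higher (median -1.46). Their shares were 85.7% and 7.14%, against 35.5% and 33.2% of all genes. For the difference 8 were called higher and 1 lower in tumors (57.1% and 7.14%, against 21.5% and 15.9% of all genes). Erbb3, the receptor of neuregulins, had 675, 641 and 644 normalized counts in control cells and 57.3, 71.1 and 50.4 after DON. In tumors it had 587, 627 and 479 on vehicle and 745, 1166 and 2046 on DRP-104, so that its groups did not overlap in tumors or in cells and lay in opposite order. Of all genes tested, 9.78% had no overlap in tumors and 72.5% had none in cells. The difference was 4.56 ± 0.395 (adjusted p = 3.03e-06), and the tumor log2 fold change was 1.11 (95% interval 0.36 to 1.86) in the normalized counts and -0.20 in FPKM. For Egfr the tumor values overlapped (951, 1065 and 951 on vehicle, 1123, 1219 and 528 on DRP-104) and the difference was 1.49 (adjusted p = 0.00666), and for Erbb2 it was 1.58 (adjusted p = 2.14e-04). Axl had -0.45 after DON and -0.46 on DRP-104, a difference of -0.01 ± 0.283 (adjusted p = 0.976), with a tumor interval of -1.06 to 0.14 that held both no change and the DON response. With the FPKM columns its tumor log2 fold change was 0.21 and the difference was 0.66 and called (adjusted p = 0.00695). Fgfr1, at 65.4 to 114 normalized counts in control cells and 860 to 1601 in vehicle tumors, differed by -2.34, and DRP-104 tumor 3 had its lowest tumor value, 203. Its tumor log2 fold change was -1.02, and 0.50 in FPKM, with which the difference was -0.81 and no longer called (adjusted p = 0.0635), nor was it at a threshold of 0.01.

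Epithelial genes fell in cells in 12 of 13 tested members (92.3%, against 35.5% of all genes), with a median of -2.22. Their tumor median was 0.24 in the normalized counts and -0.17 in FPKM. For the difference 11 were called higher in tumors (84.6%, against 21.5% of all genes), with a median of 2.40, or 2.53 without DRP-104 tumor 3. Krt7, a ductal keratin, had 87108, 85015 and 64900 normalized counts in control cells and 8052, 9081 and 8004 after DON, against 18748, 22235 and 14143 in vehicle and 20509, 24716 and 27993 in DRP-104 tumors. Its difference was 3.65 ± 0.256 (adjusted p = 8.23e-07), and the tumor interval of -0.10 to 0.94 ended at 3.00% of the DON response. Epcam, the epithelial adhesion molecule, had 327, 442 and 341 in control cells, 51.3, 68.3 and 40.3 after DON, 1382, 3930 and 2402 in vehicle and 3622, 5479 and 4325 in DRP-104 tumors (difference 3.70 ± 0.437). Of 9 tested mesenchymal genes, 3 rose and 3 fell after DON, 33.3% each, near the 33.2% and 35.5% of all genes. For the difference 2 were called in each direction, 22.2% each, against 21.5% higher and 15.9% lower of all genes. The tumor median of -0.41 was 0.09 in FPKM. Snai2, a repressor of epithelial genes, had 275, 251 and 235 in control cells and 2423, 2181 and 2241 after DON, against 191, 181 and 214 in vehicle and 256, 218 and 123 in DRP-104 tumors (difference -3.20 ± 0.316). Zeb2, another such repressor, differed by -2.78. The fibroblast markers that were lower in DRP-104 tumors move beside this list, whose vehicle level was 3.98 times that of control cells, and their part was not tested.

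**Figure D5:**
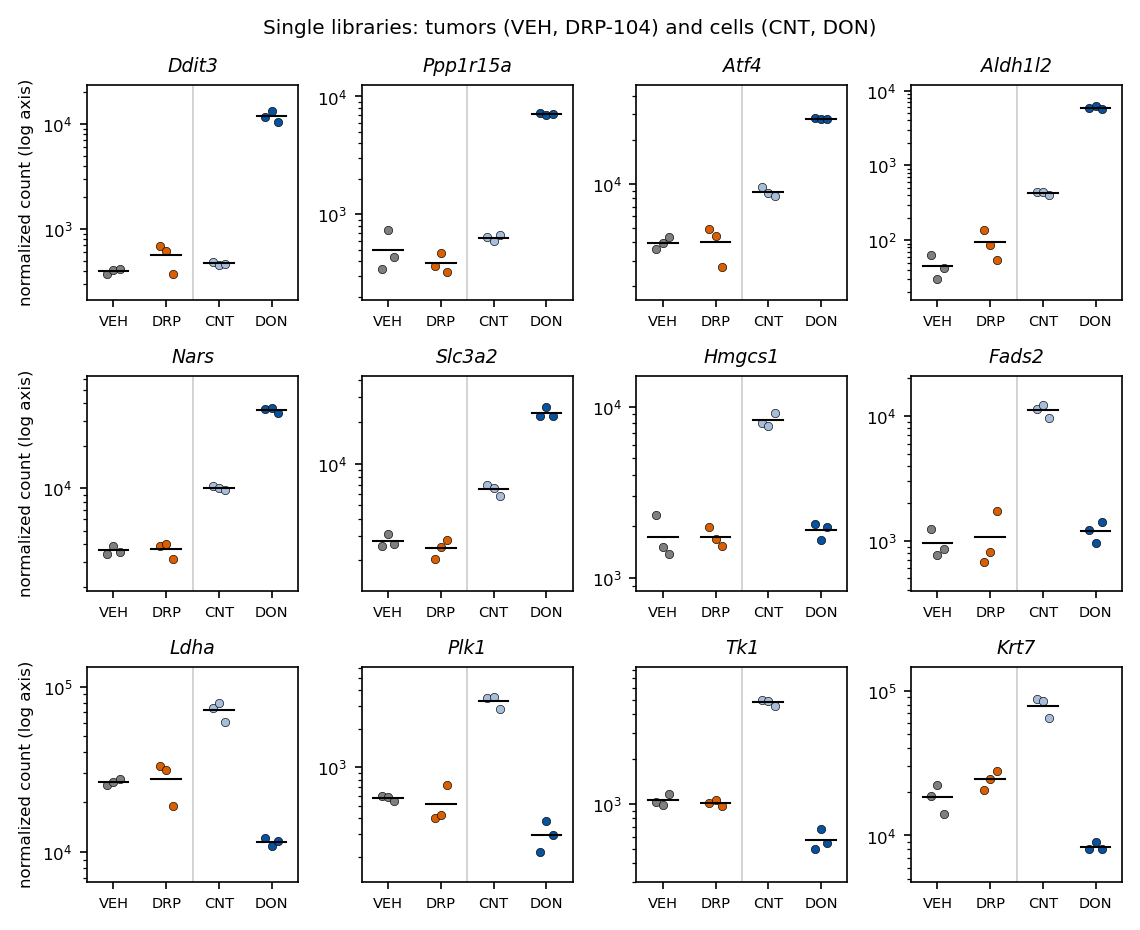
Normalized counts of 12 genes in every library, on log axes, with vehicle (VEH, gray) and DRP-104 (DRP, orange) tumors left of the line, control (CNT, light blue) and DON (dark blue) cultures right of it, and the group mean as a bar. In each panel the culture groups are apart, as for Ddit3 (457 to 488 against 10524 to 13277), while the tumor groups overlap, as for Ddit3 (374 to 418 against 376 to 681). Of all genes tested, 72.5% had culture groups apart and 9.78% had tumor groups apart. The tables were normalized separately, so levels compare within each side of the line.

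The tumor level of the interferon response and MHC class I list depended on 1 tumor. Of 20 genes, 11 were tested, and 7 fell and 3 rose after DON (63.6% and 27.3%, against 35.5% and 33.2% of all genes). The tumor median was 0.78, or -0.17 in FPKM and 0.09 without DRP-104 tumor 3. That tumor also held the T cell genes, whose part in this list was not tested. The median difference was 1.73 and fell to 0.70 without it. Irf1, an interferon-induced factor, had 899, 475 and 638 normalized counts on vehicle and 791, 606 and 2904 on DRP-104, and Tapbp, which loads MHC class I, had 2299, 1553 and 1701 on vehicle and 1675, 1665 and 5229 on DRP-104. Both fell in cells, and 3 of the 11 members were called higher in tumors for the difference (27.3%, against 21.5% of all genes), or 4 without that tumor.

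The single genes described next are the 8 lowest and 8 highest differences among 3933 called genes with a mean of at least 100 in both tables and no overlap between DON and control libraries. At the low end, Snhg1, a host transcript of small nucleolar RNAs, had 868, 762 and 1089 normalized counts in control cells and 25485, 29685 and 23619 after DON. Vehicle tumors had 1052, 821 and 1408 and DRP-104 tumors 1418, 1110 and 1233, a difference of -4.64 ± 0.264 (adjusted p = 2.40e-07). Snhg12, of the same class, had 385, 328 and 409, then 7267, 8205 and 7230, and in tumors 306, 236 and 354 on vehicle and 161, 330 and 354 on DRP-104 (difference -4.48 ± 0.352). Such transcripts are spliced noncoding RNAs whose introns hold the small nucleolar RNAs.

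Dynap had the lowest difference of these genes, -6.97 ± 1.05, with 62.9, 42.5 and 44.2 normalized counts in control cells, 2720, 2515 and 2687 after DON, 737, 507 and 1097 in vehicle tumors and 895, 660 and 51.0 in DRP-104 tumors, where tumor 3 stood far below the rest. Lhfpl2 differed by -4.34, with 274, 269 and 144 on vehicle and 108, 129 and 120 on DRP-104 (tumor log2 fold change -0.89, and 0.03 in FPKM). Insm1, a neuroendocrine factor, differed by -3.65, with 229, 353 and 503 on vehicle and 207, 118 and 32.4 on DRP-104 (tumor log2 fold change -1.88, and -0.14 in FPKM). Cd68, a lysosomal protein used as a macrophage marker, rose in cells from 69.2, 79.9 and 47.4 to 824, 847 and 798 and had 297, 443 and 218 in vehicle and 284, 205 and 449 in DRP-104 tumors (difference -3.71). Ddit3 and Ppp1r15a completed this end.

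At the high end DRP-104 tumor 3 was the highest of the tumors for 6 of the 8 genes, Kbtbd11 and Fgf1 being the exceptions. Ly6a, the Sca-1 surface protein that interferon also induces, fell from 1344, 1476 and 1150 normalized counts to 26.3, 40.6 and 36.9 in cells, and had 2030, 1930 and 1788 in vehicle and 3510, 3744 and 11709 in DRP-104 tumors. Its groups did not overlap in tumors or in cells (9.78% and 72.5% of all genes). The difference was 6.72 ± 0.486 (adjusted p = 9.91e-07), although in FPKM its tumor log2 fold change was -0.30. Kbtbd11 was called with close tumor values: 3800, 4436 and 3733 in control cells, 53.7, 36.0 and 61.3 after DON, 1456, 2446 and 1224 in vehicle and 1640, 1676 and 1936 in DRP-104 tumors (difference 6.41 ± 0.332). Tnip3, an inhibitor of NF-κB signaling, differed by 6.87 and Slc26a9, an anion transporter, by 7.45. Gjb1, a gap junction protein, had 293, 245 and 168 in control cells and 0, 1.85 and 0 after DON, and Igfbp5, an IGF binding protein, had 191, 242 and 249 and then 2.39, 0 and 0. Their fitted differences (8.20 and 7.44) depend on the pseudocount of 1. Tm4sf20 differed by 7.73 and Fgf1, a growth factor, by 6.51, and in both the tumors spread widely, with 121, 121 and 1326 normalized counts on DRP-104 for Tm4sf20. In FPKM the tumor log2 fold changes of Tm4sf20, Gjb1 and Tnip3 were -1.14, -0.55 and -0.38, against 1.47, 0.86 and 1.34 in the normalized counts.

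Genes that may answer in both settings were sought among those called after DON with the same direction and an unadjusted p under 0.05 on DRP-104 and a mean of at least 100 in both tables. There were 200, of which 69 were higher and 131 lower, and 92 of the 200 were still called for the difference. None passed the adjusted threshold in tumors, so these are candidates. The highest were Stc2, Malat1 and Xist. Malat1, a nuclear long noncoding RNA, had 3009, 2674 and 3680 normalized counts in control cells, 19895, 20290 and 22783 after DON, 12126, 8021 and 8838 in vehicle and 9015, 27371 and 38952 in DRP-104 tumors. The tumor groups overlapped, and in FPKM the tumor log2 fold change was -0.41 against 1.16 here. Stc2, a secreted glycoprotein of the stress response, had 948, 854 and 783 in control cells, 1033, 1143 and 1017 after DON, 322, 221 and 114 in vehicle and 351, 397 and 771 in DRP-104 tumors. It changed little in cells (0.31) and its tumor log2 fold change was 1.24 in the normalized counts and 0.37 in FPKM. Xist, the RNA of the inactive X chromosome, had 1.11 after DON and 0.98 on DRP-104 but -0.41 in FPKM.

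The lowest were Rbpms2, Bmper and Pdgfra. Pdgfra, a receptor carried by fibroblasts and 1 of the 9 fibroblast markers, had 556, 621 and 456 normalized counts in control cells, 123, 154 and 139 after DON, 605, 1007 and 546 in vehicle and 465, 344 and 185 in DRP-104 tumors. The tumor log2 fold change was -1.16 in the normalized counts and 0.08 in FPKM. Bmper, a modulator of BMP signaling, had -1.65 after DON and -1.27 on DRP-104, and Rbpms2, an RNA-binding protein, -1.13 and -1.30, and in FPKM they had -0.07 and 0.11. These genes fell beside the fibroblast and endothelial marker sums of the DRP-104 tumors, whose part in the tumor values was not tested.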

How the data were processed

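RNA from HY19636 cells and orthotopic tumors was sequenced for the authors by Novogene, aligned with HISAT2 and tested with DESeq2. The submitters' processing notes also name STAR 2.5, CASAVA and GRCm39, while coordinates in the FPKM table are those of GRCm38. The counter and strand setting are not given in the sources used here, so overlapping genes may share reads. The deposited signal is the gene count divided by 1 size factor per library within each table, and the FPKM that the authors deposited are scaled for gene length and library size. The authors' tables also hold their own fold changes and p-values, which were not used. Each value divided by the worth of 1 read gave a whole count for 100% of values (tolerance 0.0051 plus 2e-06 of the value). Among genes with 1 to 20 reads, 69.6% to 72.7% of values were even in the culture libraries and 41.9% to 46.5% in the tumor libraries. The cause was not tested.

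The test was that of limma 3.58.1 with a trend (R 4.3.3) on log2(value + 1), with each response fitted in its own 6 libraries and the difference in 12 libraries with 4 group means, over 13047 genes with a mean of at least 10 in both tables. Calls had a Benjamini-Hochberg adjusted p under 0.05. Fold changes on this scale understate those of low genes. The code was tested on simulated data. The members and the gene lists were chosen with earlier results of these data known. Named genes were the 8 lowest and 8 highest called differences (mean of at least 100, DON and control not overlapping, no Gm or Rik names), the 3 largest called differences of each list, the 3 highest and 3 lowest fold changes in tumors among genes that moved the same way, the genes the study names at its RNA-seq results, and Glul. Other list members were named where they were exceptions, after their values were seen. Alternatives were pseudocounts of 0.5 and 5, minimum means of 1 and 50, quantile normalization, a threshold of 0.01, separate variances, a replicate block, edgeR 4.0.16 and DESeq2 1.42.0 on whole reads, FPKM for the tumors and leaving out each library. Promoter sequences are those of RefSeq on GRCm38.p6. Figures were drawn with matplotlib 3.10.9. A few genes are not reported here.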

Additional observations from a re-analysis of the deposited data

Results flagged for a closer look

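The response differed between tumors and cells, by the test of the difference itself, for 4871 genes. Of the 107 genes chosen by the naming rule 101 were among them, which is no separate result because most were chosen for being called. Among called genes with a mean of at least 100 in both tables and no overlap between DON and control libraries, the lowest differences (log2) were those of Dynap (-6.97), Snhg1 (-4.64), Snhg12 (-4.48), Lhfpl2 (-4.34), Ddit3 (-4.20), Ppp1r15a (-3.79), Cd68 (-3.71) and Insm1 (-3.65). The highest were those of Gjb1 (8.20), Tm4sf20 (7.73), Slc26a9 (7.45), Igfbp5 (7.44), Tnip3 (6.87), Ly6a (6.72), Fgf1 (6.51) and Kbtbd11 (6.41). Groups of 3 libraries are too small for a test of single outlying libraries.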

How the results depend on the processing

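The 4871 genes called for the difference became 3012 at a threshold of 0.01 and lay between 4429 and 6118 under the other alternatives that kept all libraries, apart from 4059 with a replicate block. Replicate numbers did not pair the samples: deviations of same-numbered libraries correlated at -0.369 to 0.014 in tumors and -0.001 to 0.029 in cells. Leaving out 1 library gave 4006 to 5317 genes. After DON the 8975 genes became 7531 to 9750 under the alternatives, and in tumors 0 genes became 6 with DESeq2 (Col1a1 and Mxra8 lower, Il18r1, Ly6a, Mal2 and Tmc4 higher). Of 101 named genes called for the difference, 90 were called under every alternative, and the changes of call numbered most with FPKM for the tumors (9) and at a threshold of 0.01 (8). With FPKM the difference turned for mt-Cytb (-0.10), mt-Nd4 (-0.77), Rbpms2 (1.24) and Axl (0.66). The cause was not tested. Of 621 list medians under alternatives, 52 moved by over 1 SD between libraries. With 3 tumors a group and a median residual SD of 0.27 (0.16 in cells), small tumor responses cannot be detected.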
